A study of Mus musculus with 4 samples.

Results

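The 32 genes described here encode the enzymes of cholesterol and fatty acid synthesis and the proteins that control them, and were taken as a given list of symbols: Acat2, Hmgcs1, Mvk, Pmvk, Mvd, Idi1, Fdps, Fdft1, Sqle, Lss, Cyp51, Tm7sf2, Msmo1, Nsdhl, Hsd17b7, Ebp, Sc5d, Dhcr7, Insig1, Insig2, Scap, Srebf1, Srebf2, Stard4, Fads1, Fads2, Acly, Acaca, Fasn, Scd1, Scd2 and Elovl6. All 32 were found among the 52636 genes of the deposited files. RNA was sequenced in bulk from cells of the mouse corpus callosum, the large white matter tract of the forebrain. All libraries came from mice labelled with the genotype Mertk_KO, after 4 weeks of chow with 0.2% cuprizone, a copper chelator that kills oligodendrocytes. The groups were AnnexinV-positive (dying) and AnnexinV-negative (living) cells, with 2 libraries each; annexin V binds phosphatidylserine on the surface of dying cells. They are called positive and negative libraries below. No wild-type or untreated group enters the comparison, and the labels give no age, sex or strain. Mertk encodes a receptor through which phagocytes take up dying cells. Its RNA was present in all 4 libraries, at an RPKM (reads scaled to gene length and library) of 62.6 and 53.6 in positive and 18.8 and 29.9 in negative libraries; the files give 1 value per gene, so RNA from outside an altered stretch would be counted, and the value does not check the genotype. Nothing in the labels ties a replicate to an animal or culture of its own, so the tests see only the spread between these 4 libraries, which may be technical.

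Cholesterol is built from acetyl-CoA through mevalonate, squalene and lanosterol, and fatty acids from the same precursor through malonyl-CoA. SREBP transcription factors, the products of Srebf1 and Srebf2, switch on both sets of genes: with little sterol in the membrane the escort protein Scap carries them from the endoplasmic reticulum to the Golgi, where they are cut and released, and with much sterol the Insig proteins hold them back. In white matter these pathways are known for supplying the lipids of myelin, which oligodendrocytes make in large amounts, and the brain makes its own cholesterol, since little crosses from the blood.

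SREBPs act on promoters together with NF-Y, which binds the CCAAT box. RefSeq promoter windows (GRCm38.p6, 250 bases before to 50 after a start) matched 25 of the 32 genes by symbol. Letters were searched on both strands for TCACNCCAC, a form of the sterol regulatory element, for CCAAT, and for CACGTG, an E-box. CCAAT stood in a window of 20 of the 25 genes (80%), against 41.1% of the 27025 genes with a window and 43.1% of the 7963 of them that were tested for expression. CACGTG stood in 5 of 25 (20%, against 8.09% of all genes with a window and 12.2% of those tested), and TCACNCCAC in 1 of 25 (4%, against 1.44% and 1.43%). The matches of TCACNCCAC, CCAAT and CACGTG did not overlap one another in the stretches below, which show the part of 4 windows before the start, with matches in capitals. Hmgcs1 is shown as the only gene of the 25 with TCACNCCAC, Hsd17b7 as a low enzyme with both other motifs, Ebp as the enzyme that was higher in AnnexinV-positive libraries, and Srebf1, at the most downstream of its 3 windows, as the regulator that was lower.
Hmgcs1 (chr13:119690101-119690350, plus strand): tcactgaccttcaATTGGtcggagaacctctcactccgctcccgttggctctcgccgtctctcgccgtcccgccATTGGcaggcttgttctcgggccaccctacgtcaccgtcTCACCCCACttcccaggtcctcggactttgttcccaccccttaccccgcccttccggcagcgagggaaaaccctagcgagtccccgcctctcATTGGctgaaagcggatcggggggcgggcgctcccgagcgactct
Hsd17b7 (chr1:169969242-169969455, minus strand, without the 36 bases next to the start, which GENCODE places in its first exon): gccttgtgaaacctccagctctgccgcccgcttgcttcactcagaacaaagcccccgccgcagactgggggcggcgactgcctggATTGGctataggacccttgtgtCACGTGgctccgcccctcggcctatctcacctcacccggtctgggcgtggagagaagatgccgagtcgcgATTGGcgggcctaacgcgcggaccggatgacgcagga
Ebp (chrX:8193513-8193762, minus strand): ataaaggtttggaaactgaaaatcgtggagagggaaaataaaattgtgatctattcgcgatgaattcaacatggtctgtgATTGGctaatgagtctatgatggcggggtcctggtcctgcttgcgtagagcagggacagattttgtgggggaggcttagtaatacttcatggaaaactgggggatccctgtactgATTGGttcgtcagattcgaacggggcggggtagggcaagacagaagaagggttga
Srebf1 (chr11:60210472-60210721, minus strand): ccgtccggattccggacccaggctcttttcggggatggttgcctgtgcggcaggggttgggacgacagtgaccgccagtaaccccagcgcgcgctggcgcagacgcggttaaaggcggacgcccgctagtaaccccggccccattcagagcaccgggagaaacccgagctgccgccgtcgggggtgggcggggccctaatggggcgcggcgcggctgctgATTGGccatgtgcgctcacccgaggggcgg
The stretch of Hmgcs1 held 1 TCACNCCAC and 3 CCAAT matches, that of Hsd17b7 2 CCAAT and 1 CACGTG, that of Ebp 2 CCAAT and that of Srebf1 1 CCAAT. A match is a description of letters and not a bound site.

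Each value is as deposited, with no stated unit, and was read here as an RPKM. The smallest steps in the values put the depth at 43253956 to 67459677 reads in genes, and 1 read per kilobase at an RPKM of 0.00833 to 0.0116. The comparison took the 10927 genes that reached an RPKM of 1 in 2 or more libraries, with limma on log2(RPKM + 0.1). A gene was called where its p, adjusted by Benjamini and Hochberg over these genes, was under 0.05. Fold changes are positive minus negative on that scale, which understates the change of low genes. On it 30.8% of all genes tested were higher and 9.26% lower, with a median log2 fold change of 0.45. That median depends on the scale, and was -0.32 with each library rescaled to the same total (the TPM scale). With libraries centred on the genes tested it was 0.02, near 0 by construction. Whether the shift comes from the scale or from the cells was not tested. Directions below are therefore given with the scales on which they flip. All 15 mature oligodendrocyte markers were lower in positive libraries (summed RPKM 87.5 to 102.9 against 626.3 to 1110), 7 of 8 tested precursor markers were lower (summed RPKM 18.1 to 20.8 against 130.3 to 162.6), and all 14 homeostatic microglia markers were higher (6070 to 6200 against 2362 to 2875), with 1 of the 14 higher on the TPM scale. Of the markers of other cells, 9 of 11 astrocyte markers (summed RPKM 35.2 to 51.8 against 77.7 to 107.9), 6 of 8 tested endothelial markers (8.69 to 12.6 against 43.2 to 45.1) and 4 of 6 tested mural markers (18.4 to 23.7 against 67.8 to 74.4) were lower. Cspg4, without a call, stood on both the precursor and the mural list and entered both sums. Of the tested markers, 10 mature oligodendrocyte, 3 precursor-list, 4 endothelial and 3 mural ones reached the RPKM minimum only in negative libraries. For them the minimum itself favoured a lower call, so these counts describe the genes that passed. The summed RPKM took in every listed marker, tested or not. No marker of these lists was at 0 in any library. In bulk libraries fewer cells of a type and less RNA per cell cannot be told apart, and the part of these markers' cells in the results below was not tested.

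Of the 32 genes, 26 reached the RPKM minimum and were tested. In AnnexinV-positive cells 7 fell (Scd1, Sqle, Scd2, Fads2, Srebf1, Sc5d and Msmo1), 1 rose (Ebp) and 18 did not pass the test, 10 with a value above 0 and 8 below. The 7 decreases are 26.9% of the genes tested, beside 9.26% over all genes, and the single increase is 3.85%, beside 30.8%. The median log2 fold change of the 26 was -0.19, and 23 of the 26 lay under the median of all genes. Scd1 and Lss reached the minimum only in negative libraries, so such counts describe the genes that passed and not the whole list. The groups did not overlap for 17 of the 26 genes, beside 75.9% of all genes tested. Centred on the genes tested, 9 were lower and 0 higher, beside 11.9% and 6.53% of all genes, with a median of -0.61. On the TPM scale 12 were lower and 0 higher, beside 19.1% and 1.03%, with a median of -0.96. With libraries centred on the microglia markers 25 of 26 were lower and 0 higher, beside 54.7% and 0.119%, and all 26 values were below 0. Of the 32 genes 11 share exon bases with another annotated gene, and their reads may include some of that gene. Adjusted p-values are limma's with Benjamini-Hochberg adjustment throughout.

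**Figure D1:**
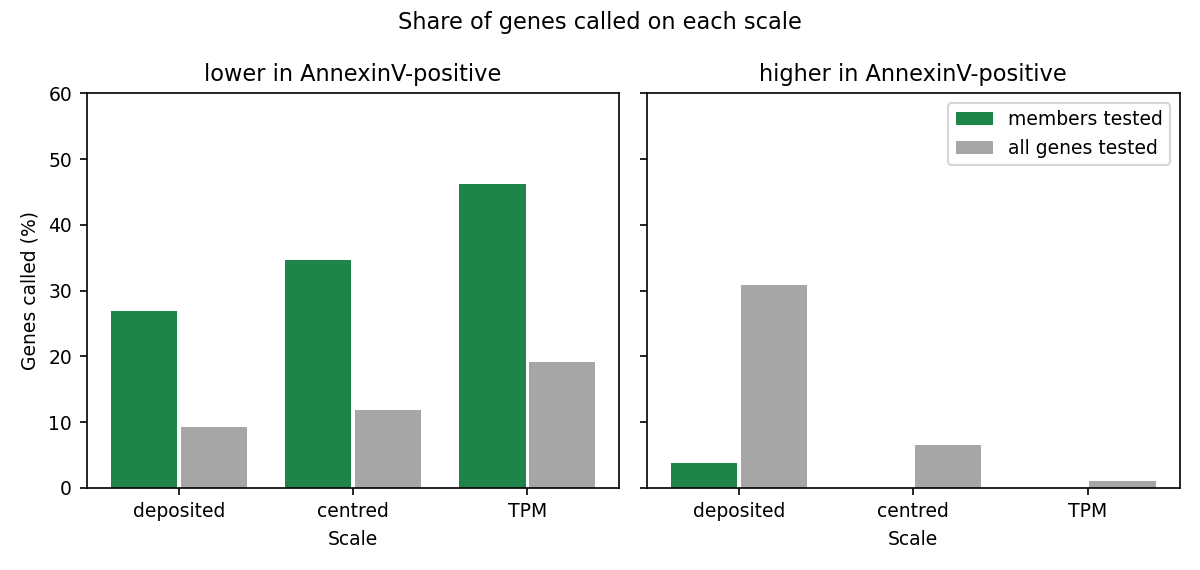
Percent of the 26 members tested (green) and of all 10927 genes tested (grey) that were called lower (left) or higher (right) in AnnexinV-positive libraries, on the deposited scale, with libraries centred on the genes tested, and on the TPM scale. On each of these 3 scales the percentage called lower was larger among the members (26.9, 34.6 and 46.2%) than among all genes (9.26, 11.9 and 19.1%), and no test of that difference was made. The members called lower include Scd1 on all 3 scales and Lss on the centred and TPM scales. Both reached the RPKM minimum only in negative libraries.

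Scd2 had the highest RPKM of the 32 genes and Acly the second highest in all 4 libraries, and Idi1 the lowest. Below them the order differed between groups: Srebf1 had rank 3 in both negative libraries, and 6 and 5 in positive libraries 1 and 2. Scd1 had rank 19 and 13 in the negative and 31 in both positive libraries, and Sqle 12 and 17 against 21 and 24.

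**Figure D2:**
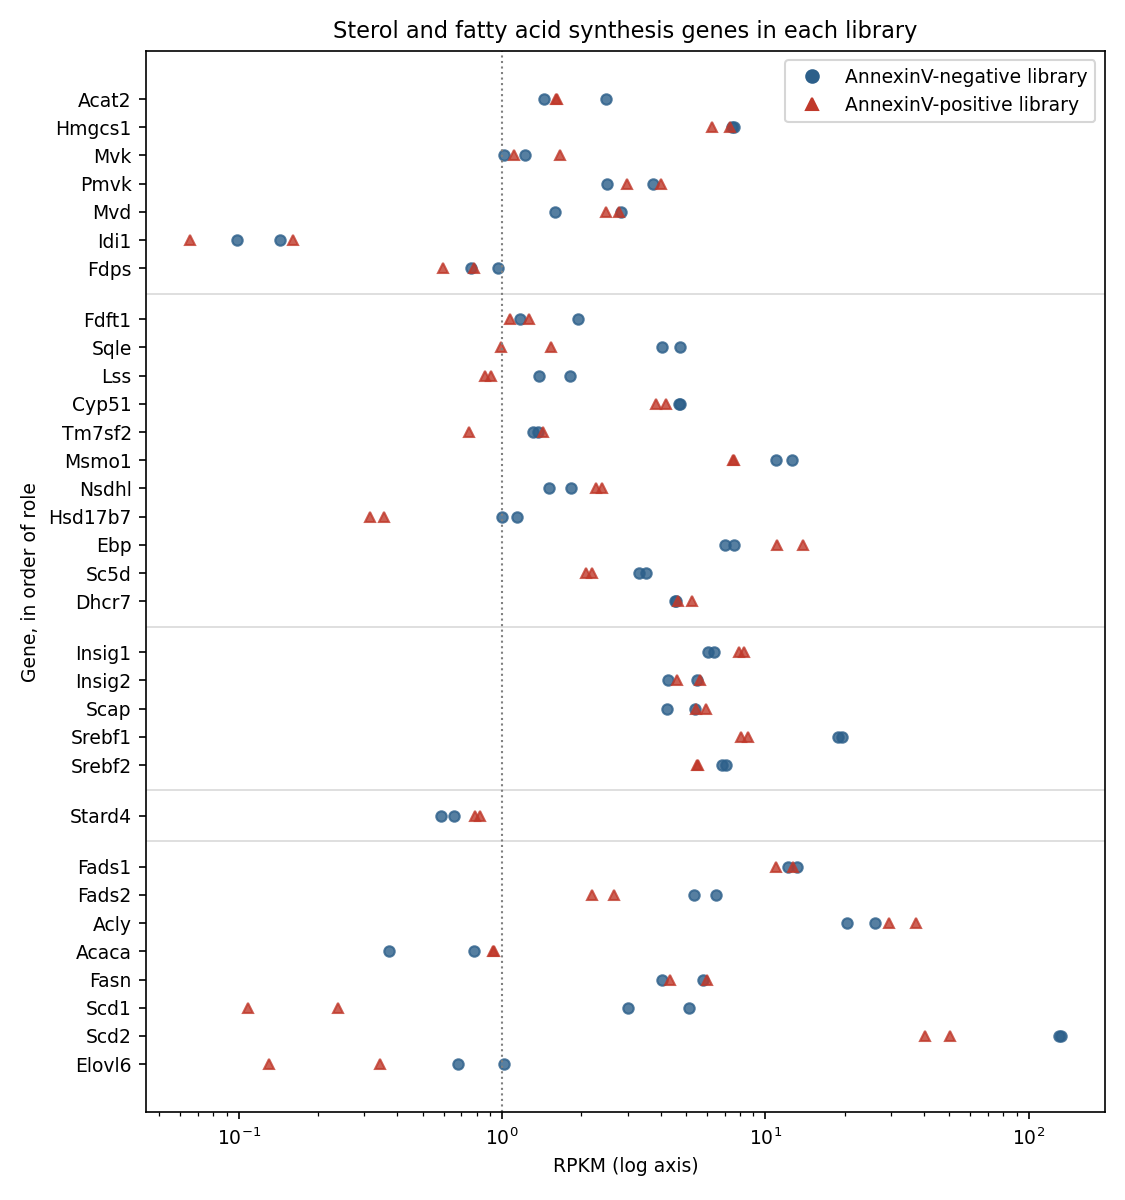
RPKM on a log axis of each of the 32 genes in the 2 AnnexinV-negative (blue circles) and the 2 AnnexinV-positive (red triangles) libraries, in blocks for mevalonate steps, squalene and sterol steps, regulators, the carrier Stard4 and fatty acid synthesis. The dotted line is the RPKM minimum of 1. The AnnexinV-positive libraries lie far to the left for Scd1 (0.108 and 0.238 against 3.01 and 5.12), and overlap the AnnexinV-negative ones for Acat2, Mvk, Pmvk and Mvd.

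Of the 5 regulators, all tested, 1 fell (Srebf1) and 4 did not pass the test, with a median log2 fold change of 0.07; on the centred and TPM scales 2 were lower (Srebf1 and Srebf2). Srebf1 (ENSMUSG00000020538, chromosome 11, 60199089 to 60222581, minus strand, GRCm38) encodes the SREBP proteins best known for driving fatty acid synthesis. Its RPKM was 8.11 and 8.56 in positive libraries 1 and 2, and 19.5 and 18.8 in negative libraries 1 and 2. Both positive libraries were low, with each pair close together and no overlap. The log2 fold change was -1.19 (SE 0.17, limma adjusted p 0.00381), and -1.61 centred and -1.98 on the TPM scale. Srebf1 shares 109 exon bases with Rai1 and 66 with Mir6922, whose reads cannot be told apart in libraries made without strand.

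Srebf2, whose product mainly drives sterol synthesis, did not pass the test. It was at an RPKM of 5.54 and 5.52 in the positive and 7.08 and 6.85 in the negative libraries. The groups did not overlap, and the log2 fold change was -0.33 (SE 0.18, limma adjusted p 0.173). It was called lower on the centred scale (-0.75, limma adjusted p 0.0289) and on the TPM scale (-1.11, limma adjusted p 0.00632). The ratio of the 2 genes within a library does not depend on the scale set between libraries. Srebf2 was at 0.683 and 0.645 of the Srebf1 RPKM in the positive and at 0.363 and 0.364 in the negative libraries, a shift of 0.87 on the log2 scale, so that the balance of the pair lay further towards Srebf2 in AnnexinV-positive cells. An exact permutation test of 2 libraries against 2 cannot give a two-sided p below 0.333, so such ratios are given without a test.

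The genes that hold SREBPs in the endoplasmic reticulum or escort them did not pass the test. Insig1, itself a well-known SREBP target that closes the feedback loop, was at an RPKM of 8.29 and 7.92 in positive and 6.08 and 6.40 in negative libraries, without overlap (log2 fold change 0.37, SE 0.18, limma adjusted p 0.131). Its value turned to -0.05 centred and -0.40 on the TPM scale. Insig2, its paralog, was at 4.60 and 5.66 against 5.51 and 4.28, and the groups overlapped (0.07, and -0.35 centred and -0.70 on the TPM scale). Scap, the escort, was at 5.95 and 5.45 against 4.23 and 5.39 (0.25, and -0.17 centred and -0.52 on the TPM scale), with negative library 2 next to the positive pair. Scap shares 985 exon bases with 5830462I19Rik. The ratio of Insig1 to Insig2 was 1.80 and 1.40 in the positive and 1.10 and 1.495 in the negative libraries, and overlapped.

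**Figure D3:**
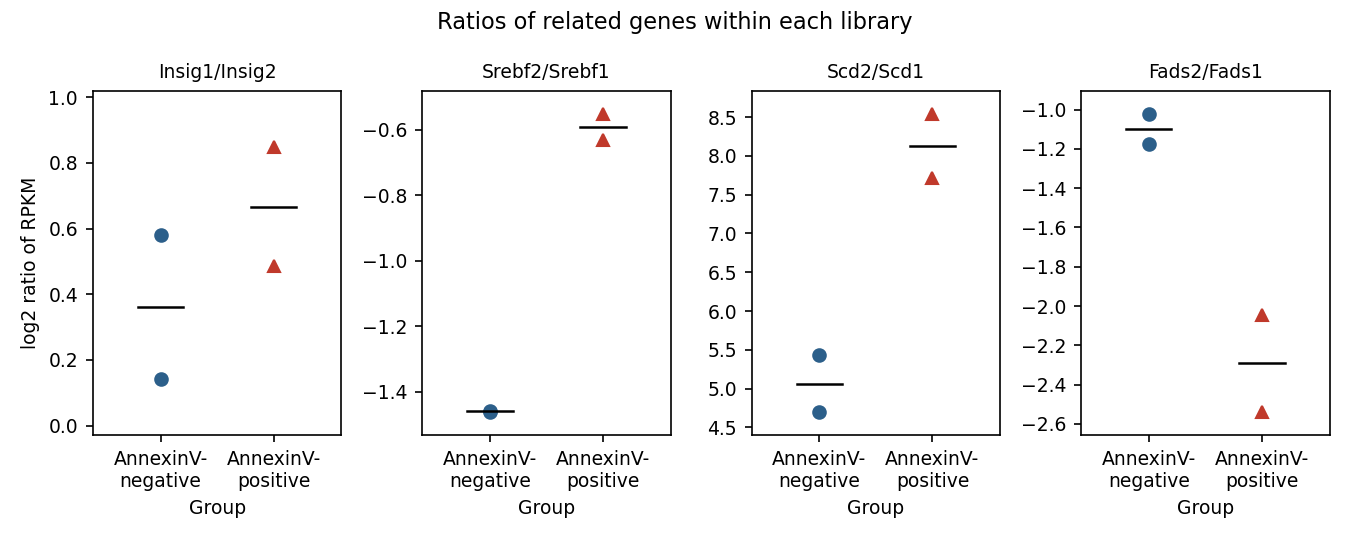
The log2 ratio of the RPKM of 2 related genes in the same library, for AnnexinV-negative (blue circles) and AnnexinV-positive (red triangles) libraries, with the mean of each pair as a bar and a separate vertical axis in each panel. The groups overlap for Insig1/Insig2 and do not for Srebf2/Srebf1 (shift 0.87), Scd2/Scd1 (3.06) and Fads2/Fads1 (-1.19).

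The first steps of the pathway, from acetyl-CoA to farnesyl diphosphate, showed no change past the test: 0 of 5 tested genes were called on the deposited or the centred scale, and 1 of 5 (Hmgcs1) was lower on the TPM scale. Hmgcs1, an early synthase of the mevalonate pathway, was the most abundant of them. Its RPKM was 7.36 and 6.25 in positive and 7.62 and 7.44 in negative libraries (log2 fold change -0.15, SE 0.19, limma adjusted p 0.532; on the TPM scale -0.93, limma adjusted p 0.0194). Positive library 1 lay close to the negative pair. The thiolase Acat2 had a log2 fold change of -0.23, the kinases Mvk and Pmvk of 0.27 and 0.17, and the decarboxylase Mvd of 0.30, with limma adjusted p-values of 0.421 to 0.610 and overlapping groups. Mvk, Pmvk and Mvd turned below 0 on the centred and TPM scales. Summed over these 7 genes, the RPKM was 16.3 to 17.2 in positive and 16.3 to 17.5 in negative libraries, so the summed level differed by less than the spread between libraries on the deposited scale. On the TPM scale the sum was 78.9 to 81.4 against 135.0 to 142.8.

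Idi1, the isomerase, and Fdps, which makes farnesyl diphosphate, did not reach the RPKM minimum in any library. Idi1 was at 0.160 and 0.0652 in the positive and 0.143 and 0.0989 in the negative libraries, from 20 to 60 reads. Fdps was at 0.599 and 0.783 against 0.968 and 0.760. Both sets of values overlapped between groups. Idi1 shares exon bases with Gm48574 on the other strand, and Fdps with Gm43738 on the same strand. With no filter on low values, in a fit that called 5.55% of all genes lower and 4.16% higher, their log2 fold changes were -0.08 and -0.29 (limma adjusted p 0.904 and 0.533).

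Of the 11 enzymes from squalene synthase to cholesterol 10 were tested, of which 3 fell (Sqle, Msmo1 and Sc5d) and 1 rose (Ebp), with a median of -0.35. On the centred scale 4 were lower and on the TPM scale 5, and 0 were higher on either. The largest change among the sterol enzymes tested was that of Sqle, squalene epoxidase, a rate-limiting oxygen-dependent step (ENSMUSG00000022351, chromosome 15, 59315077 to 59331192, plus strand). Its RPKM was 1.53 and 0.994 in positive and 4.76 and 4.07 in negative libraries, from 475 to 3171 reads. Both positive libraries were under the lower negative library by a wide margin. Sqle fell by 1.75 on the log2 scale (SE 0.26, limma adjusted p 0.00403), and was at -2.18 centred and -2.59 on the TPM scale.

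A pair of later enzymes fell by less. Msmo1, the methylsterol oxidase, was at an RPKM of 7.55 and 7.60 in positive and 12.6 and 11.0 in negative libraries (log2 fold change -0.63, SE 0.18, limma adjusted p 0.0311). Sc5d, a sterol desaturase, was at 2.20 and 2.08 against 3.53 and 3.31 (-0.65, SE 0.20, limma adjusted p 0.0371). The groups of neither gene overlapped, and both were lower on the centred and TPM scales too. Both calls depended on single libraries: Msmo1 did not pass without AnnexinV-positive replicate 1 or 2 or AnnexinV-negative replicate 1 (limma adjusted p 0.144, 0.158 and 0.0900), and Sc5d not without any 1 of the 4 libraries (limma adjusted p 0.0556 to 0.200). With the replicate number as a block their limma adjusted p-values were 0.0921 and 0.0945, and with no filter on low values 0.0701 and 0.0808.

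Ebp, the sterol isomerase, was the 1 gene of the list that rose (ENSMUSG00000031168, chromosome X, 8185329 to 8193512, minus strand). Its RPKM was 11.1 and 13.9 in positive and 7.62 and 7.06 in negative libraries, for a log2 difference of 0.75 (SE 0.20, limma adjusted p 0.0235). The groups did not overlap on the deposited scale. The change did not hold on other scales, where it was 0.33 (centred, limma adjusted p 0.275), -0.02 (TPM, limma adjusted p 0.950) and -0.45 (microglia markers), nor without AnnexinV-positive replicate 2 (0.59, limma adjusted p 0.189) or with the replicate block (limma adjusted p 0.0571) or no filter on low values (limma adjusted p 0.0599).

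The other sterol enzymes stood on either side of 0. Lss, which closes squalene oxide to lanosterol, was at 0.906 and 0.861 against 1.82 and 1.38 and just missed the threshold (log2 fold change -0.78, limma adjusted p 0.0508; on the centred scale -1.20, limma adjusted p 0.0220). Hsd17b7, a sterol ketone reductase whose promoter stretch is shown above, was at 0.317 and 0.357 in positive and 1.14 and 0.998 in negative libraries. It missed the RPKM minimum by the last of these values. With no filter on low values its log2 fold change was -1.42 (limma adjusted p 0.0301). Cyp51, the lanosterol demethylase, was at -0.22, Tm7sf2, a sterol reductase, at -0.34, and Fdft1, squalene synthase, at -0.35. Fdft1 shares 774 exon bases with Ctsb, a protease gene on the other strand, so its value is uncertain. Nsdhl, a sterol dehydrogenase, and Dhcr7, which makes cholesterol from 7-dehydrocholesterol, had values of 0.46 and 0.12, the second of which turned to -0.30 centred; on the TPM scale both were below 0, at -0.29 and -0.65. None of the last 5 passed the test (limma adjusted p 0.131 to 0.611), and Cyp51 alone of them was lower on the TPM scale (limma adjusted p 0.0136). Stard4, a carrier of cholesterol between membranes, stayed under the minimum, at 0.791 and 0.824 against 0.589 and 0.659 (log2 fold change 0.33 with no filter, limma adjusted p 0.430).

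**Figure D4:**
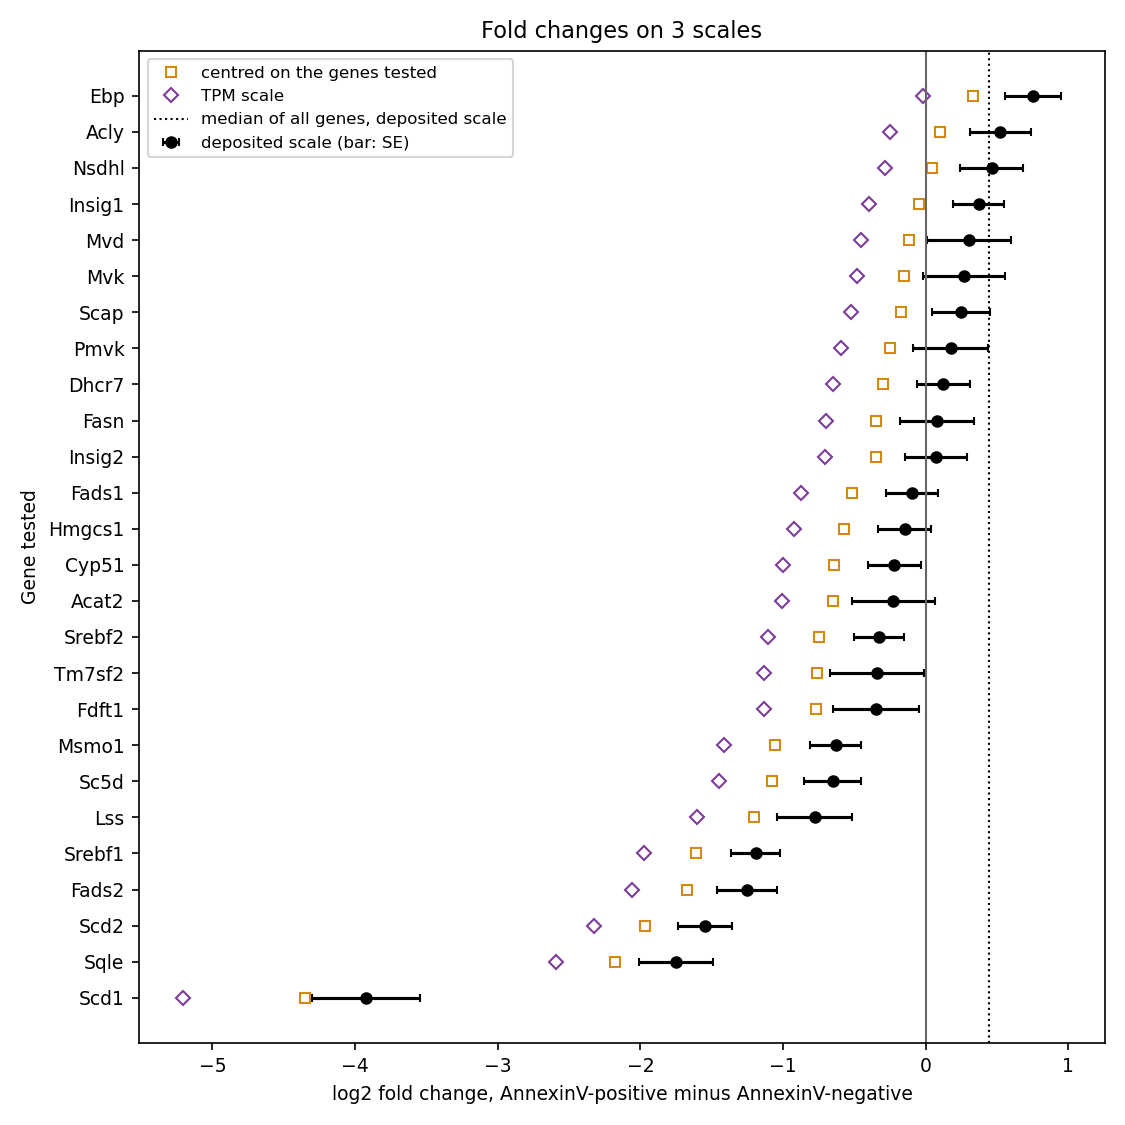
Log2 fold change (AnnexinV-positive minus AnnexinV-negative) of the 26 genes tested, in order of size, on the deposited scale (black, bar: SE), with libraries centred on the genes tested (orange squares) and on the TPM scale (purple diamonds). The dotted line is the median of all genes on the deposited scale (0.45); from Srebf1 down to Scd1 the 5 lowest genes lie under -1 on all 3 scales, while Ebp moves from 0.75 to -0.02.

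Of the 8 fatty acid genes 6 were tested, of which 3 fell and 0 rose, with a median of -0.68; 3 were lower after centring and 4 on the TPM scale. Their summed RPKM was 89.0 to 109.9 in positive and 179.0 to 188.9 in negative libraries, most of it from Scd2 and Acly. The desaturases Scd1, Scd2 and Fads2 fell, and the cytosolic synthesis genes Acly and Fasn did not pass the test. Scd1 and Scd2 encode stearoyl-CoA desaturases, which make oleic and palmitoleic acid, and lie 87.6 kb apart on chromosome 19 (Scd2 at 44293674 to 44306864, plus strand; Scd1 at 44394455 to 44407879, minus strand). Scd1 (ENSMUSG00000037071) was at an RPKM of 0.238 and 0.108 in positive and 3.01 and 5.12 in negative libraries, from 46 and 115 reads in the low pair and 1771 and 2429 in the high pair. Scd1 fell by 3.93 on the log2 scale (SE 0.38, limma adjusted p 0.00102), the largest decrease among the 26 genes, and was at -4.35 centred and -5.21 on the TPM scale. The size of the change depended on the pseudocount: it was -2.08 with 1 in place of 0.1, and -4.52 with 0.01.

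Scd2 (ENSMUSG00000025203), the paralog known as the main brain form, was at 50.1 and 40.3 in positive and 130.5 and 132.9 in negative libraries. Both positive libraries were well under the negative pair, which agreed closely. Scd2 fell by 1.55 on the log2 scale (SE 0.19, limma adjusted p 0.00228; -1.97 centred and -2.33 on the TPM scale). It shares 61 exon bases with Mir5114. Scd2 stayed the higher of the pair in every library, 210.3 and 373.1 times the RPKM of Scd1 in positive libraries 1 and 2, and 43.3 and 25.9 times in negative libraries 1 and 2, a shift of 3.06 on the log2 scale. The neighbouring Scd3 and Scd4 were read at an RPKM of 0.0211 to 0.0603 in positive and 0.151 to 0.386 in negative libraries, under the minimum for the test. Reads shared between these similar genes could have been assigned in ways that the deposited values do not show.

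Fads2 and Fads1 encode the desaturases of polyunsaturated fatty acids, and lie 81.1 kb apart on chromosome 19. Fads2 (ENSMUSG00000024665, 10062765 to 10101746, minus strand), which acts first, was at 2.19 and 2.67 in positive and 6.49 and 5.37 in negative libraries, and fell by 1.25 (SE 0.21, limma adjusted p 0.00590; -1.68 centred and -2.06 on the TPM scale). Fads1, which acts later, was at 12.8 and 11.0 against 13.2 and 12.2, with overlapping groups (log2 fold change -0.10, SE 0.18, limma adjusted p 0.684), although it was called lower on the TPM scale (-0.87, limma adjusted p 0.0214). Within a library Fads2 was at 0.172 and 0.243 of the Fads1 level in positive and 0.493 and 0.442 in negative cells, a shift of -1.19 on the log2 scale. Fads3, next to Fads2, was at 0.776 and 0.537 against 1.07 and 0.717 and was not tested.

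Acly, which splits citrate to acetyl-CoA, was at 37.3 and 29.5 in positive and 20.4 and 26.1 in negative libraries. The groups did not overlap, but the log2 fold change of 0.52 (SE 0.21) did not pass (limma adjusted p 0.0884), except without AnnexinV-negative replicate 2 (0.70, limma adjusted p 0.0456) and with crossed replicate pairs, an alternative added after the data were seen (limma adjusted p 0.0163). It was 0.10 centred and -0.25 on the TPM scale. Fasn, fatty acid synthase, varied as much within as between groups, at 6.02 and 4.33 against 4.04 and 5.79 (0.08, SE 0.26, limma adjusted p 0.820; -0.35 centred and -0.70 on the TPM scale). Acaca, the acetyl-CoA carboxylase that commits carbon to fatty acids, stayed under the minimum, at 0.935 and 0.924 against 0.373 and 0.781 (log2 fold change 0.67 with no filter, limma adjusted p 0.277). Elovl6, the elongase of palmitic acid, reached the minimum in only 1 library and was not tested, at 0.344 and 0.131 against 1.02 and 0.683. With no filter its log2 fold change was -1.55 (limma adjusted p 0.0672).

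The calls for 5 genes, Sqle, Srebf1, Fads2, Scd1 and Scd2, held in direction under all 13 alternatives run, which include leaving out each library and each change of scale. These calls also stayed past the threshold in the alternatives that kept all 4 libraries. The changes of scale are no strict check on them, since each moved values down. The median of all genes was 0.45 on the deposited scale, 0.02 centred, -0.32 on the TPM scale and -0.76 centred on the microglia markers. The values of these 5 genes when a library was left out were -2.04 to -1.47 (Sqle), -1.23 to -1.15 (Srebf1), -1.39 to -1.12 (Fads2), -4.30 to -3.55 (Scd1) and -1.70 to -1.39 (Scd2). In the same libraries the median log2 fold change was -4.96 over the mature oligodendrocyte markers and -3.04 over the tested mural markers. Over the tested markers of the precursor list, which includes the lineage genes Olig1, Olig2 and Sox10, it was -3.40. It was -2.40 over the tested endothelial, -1.27 over the astrocyte and 1.24 over the homeostatic microglia markers. The first 4 of these medians include markers that reached the RPKM minimum only in negative libraries. The part of these markers' cells in the 5 decreases was not tested.

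CCAAT stood in windows of genes that fell and of genes without a call. Of the genes that fell, 4 had a promoter window (Msmo1, Sc5d, Srebf1 and Fads2), and 3 of them held CCAAT, all but Fads2. Of the genes without a call, 16 had a window and 14 of them held CCAAT.

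Other genes of sterol and fatty acid metabolism were taken from 2 lists, which reach beyond synthesis to storage, transport and breakdown. Of 22 sterol genes outside the 32, 16 were tested, of which 6 were higher (37.5%, beside 30.8% of all genes) and 0 lower. None of these 6 encodes an enzyme of sterol synthesis. Their median log2 fold change was 0.38, beside 0.45 over all genes, so the list lay near the background; on the TPM scale 0 were higher and 0 lower. The sterol genes with the smallest p were Npc2, a lysosomal cholesterol carrier (119.0 and 142.7 against 52.9 and 55.3; log2 fold change 1.27, limma adjusted p 0.00383), and Mylip, a ubiquitin ligase (43.4 and 39.5 against 15.5 and 21.2; 1.19, limma adjusted p 0.00655). On the TPM scale Npc2 was at 0.49 and Mylip at 0.42, and neither passed; centred on the microglia markers they were at 0.06 and -0.02.

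Of 28 other fatty acid genes, 21 were tested, of which 8 were higher (38.1%, beside 30.8% of all genes) and 4 lower (19.0%, beside 9.26%), with a median of 0.20. On the TPM scale 0 were higher and 9 lower (42.9%, beside 19.1%). Of the 21, 3 reached the RPKM minimum only in negative libraries, Fa2h and Me1 among them. These shares therefore describe the genes that passed and not the whole list. The 4 that fell were Fa2h, which makes the hydroxylated fatty acids of myelin lipids (0.296 and 0.103 against 10.4 and 5.38; log2 fold change -4.74, limma adjusted p 8.47e-04), Acsl3, an acyl-CoA synthetase (-2.56), Elovl7, an elongase (-2.35), and Me1, the malic enzyme that supplies NADPH (-2.02). Each was also lower on the centred and TPM scales. The genes with the smallest p in the other direction were Mlxipl, a transcription factor that responds to sugar (11.3 and 13.9 against 4.35 and 5.49; 1.34, limma adjusted p 0.00489), and Agpat2, an acyltransferase of triglyceride synthesis (8.49 and 9.23 against 3.52 and 4.23; 1.18, limma adjusted p 0.00546). Both rose on the centred scale as well and were at 0.58 and 0.42 on the TPM scale, where neither passed, and at 0.14 and -0.03 centred on the microglia markers.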

How the data were processed

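Bulk RNA-seq libraries of 2 AnnexinV-positive and 2 AnnexinV-negative samples were grouped by their titles. Per the labels' protocols, libraries were made from total RNA with an Illumina kit that does not keep strand; alignment used GSNAP and mm10, per the submitters' processing notes. The counter and annotation were not given in the sources used here. The authors deposited 1 value per gene with no stated unit, read here as RPKM: 79.6% to 83.6% of values worth under 100 reads came within 0.01 of whole multiples of steps inverse to the exonic length in GENCODE vM21 (GRCm38), which also gave symbols for 52489 of 52636 genes. The values carry a scale set between libraries, so sums differ.

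Values were taken as log2(RPKM + 0.1), filtered at an RPKM of 1 in 2 libraries and compared with limma 3.58.1 (R 4.3.3, mean-variance trend, no covariate). The steps were tested on simulated data without a difference in scale between libraries, so that test does not cover the choice of scale. Members, lists and tests were chosen with earlier results of these data known. All 32 members are named; the naming rule for other pathway genes was the 4 smallest p in each direction; some genes are not reported here. Scd3, Scd4 and Fads3 were named after their values were seen. Same-numbered libraries were checked for shared deviations (r = -0.215 across 10927 genes), and the numbers were not used as pairs. Alternatives varied the pseudocount, filter, scale, trend, replicate block and libraries left out.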

Additional observations from a re-analysis of the deposited data

How the results depend on the processing

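With 2 libraries per group, each call rests on little replication, and the scale set between libraries decided most small values. Over all genes, 3364 were higher and 1012 lower on the deposited scale, against 713 and 1303 centred on the genes tested, 113 and 2091 on the TPM scale, 13 and 5973 centred on the microglia markers, and 1865 and 2489 with no filter. Among the 26 genes of the list, 1 was higher and 7 lower, against 0 and 9 centred, 0 and 12 on the TPM scale, 0 and 25 centred on the microglia markers, 0 and 5 with the replicate block, and 2 and 8 with the crossed replicate pairing, an alternative added after the data were seen (4891 and 1136 over all genes). With no filter 0 of all 32 were higher and 6 lower, which are 5 of the 7 and Hsd17b7. The block gave 2443 and 957 over all genes. Their median of -0.19 moved to -0.61 centred, -0.96 on the TPM scale and -1.39 on the microglia scale. The centred scales differ from the deposited one by a shift common to all genes of a library; the TPM scale also changes the weight of the pseudocount. No other cause was tested.

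Leaving out 1 library at a time, with the genes tested held and the lone library taken to vary like the other group, gave 1297 to 3356 genes higher (1749 without AnnexinV-positive replicate 1 and 1297 without replicate 2) and 787 to 1060 lower, 0 to 2 members higher and 5 to 7 lower, and a member median of -0.21 to -0.11. Ebp reversed to -0.0189 on the TPM and -0.45 on the microglia scale. On the microglia scale these also reversed, all past the threshold: Mvk -0.94, Pmvk -1.03, Mvd -0.90, Nsdhl -0.74, Dhcr7 -1.08, Insig1 -0.83, Insig2 -1.14, Scap -0.96, Acly -0.68 and Fasn -1.13. Depth limited Idi1 and the AnnexinV-positive values of Scd1, at 20 to 115 reads.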
